A study of Mus musculus with 10 samples.

Results

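A set of 9 genes that mark the meninges and other mesenchyme was read in bulk RNA-seq libraries of the cortical hem (CH): *Foxc1*, *Foxc2*, *Foxd1*, *Twist1*, *Twist2*, *Pdgfra*, *Pdgfrb*, *Lum* and *Dcn*. They were chosen by symbol as known markers, with earlier results of these data known, and are 9 of the 52227 genes in the table. All 9 reached the count filter and are among the 21664 genes tested. The libraries come from 5 wild-type and 5 *Lmx1a*-/- mouse embryos at e13.5, the mutants being homozygous for the drJ allele and both genotypes being kept on a mixed C57Bl6, FVB and CD1 background. The CH was cut from frozen coronal sections by laser capture microdissection, with its borders taken from neighbouring sections stained for Lmx1a, and the tissue of 1 embryo made 1 library. The loss of *Lmx1a* is not limited to the CH in these embryos, and the dissected piece can carry cells that lie against the CH.

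The CH is the signaling center at the medial edge of the developing cortex, and the meninges that lie over it are a mesenchymal tissue of neural crest and mesodermal origin. Forkhead factors of the FoxC and FoxD groups and the basic helix-loop-helix factors Twist1 and Twist2 act in such mesenchyme, PDGF receptors receive growth factor signals there, and lumican and decorin are small proteoglycans that bind collagen fibrils outside the cell. Neuroepithelial cells of the cortex are not known for this set of genes, although *Pdgfra* also marks oligodendrocyte precursors and *Pdgfrb* marks pericytes around blood vessels. In a bulk library, fewer cells of a type and less RNA per cell cannot be told apart.

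The levels of 3 of the 9 genes were lower in *Lmx1a*-/- than in wild-type CH at an FDR under 0.1, namely the receptor gene *Pdgfra* and the proteoglycan genes *Lum* and *Dcn*. None was higher by this test, by the likelihood ratio test or by DESeq2, and none was higher at an unadjusted p under 0.05. The called genes are 33.3% of the 9 genes, whereas 4.02% of all tested genes were called in either direction and 2.29% were called lower. *Pdgfrb* fell just short of the threshold, *Twist1* was lower on average but varied widely among wild-type embryos, and the 3 forkhead genes and *Twist2* showed no difference that could be told from the spread between embryos. The log2 fold change (*Lmx1a*-/- over wild type, so that negative values are lower in mutants) had a median of -0.43 over the 9 genes and of -0.0049 over all tested genes, and 6 of the 9 were lower in mutants against 50.6% of all tested genes.

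The members include paralogs, so their sequences bear on how reads were assigned. Both FoxC genes have a single exon and share a nearly identical stretch of coding sequence, shown here because *Foxc2* had few counts and *Foxc1* many. The stretches are 120 bases long, from GENCODE M21 on GRCm38, on the plus strand, at chr13:31807619-31807738 for *Foxc1* and chr8:121117005-121117124 for *Foxc2*, and the 4 bases that differ are in capitals.
Foxc1: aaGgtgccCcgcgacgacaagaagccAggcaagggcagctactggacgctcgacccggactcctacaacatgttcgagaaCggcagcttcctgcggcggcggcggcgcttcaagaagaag
Foxc2: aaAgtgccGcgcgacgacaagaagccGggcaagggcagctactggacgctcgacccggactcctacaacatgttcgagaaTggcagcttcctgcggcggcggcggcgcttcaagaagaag
These stretches are 96.7% identical and include a run of 53 bases without a difference. The paper describes paired-end sequencing, and a read pair that falls wholly within that run could have come from either gene. How many pairs did so was not examined. The longest run shared by the whole transcripts of *Twist1* and *Twist2* was 23 bases. Their most similar 120 coding bases lie at chr12:33958298-33958417 and chr1:91801809-91801928, both on the plus strand and within 1 exon, and differ at the 12 bases in capitals.
Twist1: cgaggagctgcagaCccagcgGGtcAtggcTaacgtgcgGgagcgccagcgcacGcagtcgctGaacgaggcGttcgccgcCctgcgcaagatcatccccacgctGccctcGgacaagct
Twist2: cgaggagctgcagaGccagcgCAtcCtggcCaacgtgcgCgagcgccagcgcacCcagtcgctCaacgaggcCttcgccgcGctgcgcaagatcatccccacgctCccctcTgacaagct
With 90.0% identity and differences spread along the stretch, reads of the Twist genes are easier to assign than those of the FoxC genes. *Pdgfra* and *Pdgfrb* shared at most 21 bases in a row and *Lum* and *Dcn* at most 12.

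The deposited tables held 19145952 to 36462780 counts per library, of which 20.56% to 27.63% were mitochondrial. The 10 CH genes listed as markers were all tested, with summed levels of 1684 to 3077 CPM, read counts scaled by edgeR to a common library size, in wild type and 2052 to 2672 in mutants. The sums are dominated by *Wnt8b* and *Rspo3* and hide differences in 6 of the 10, with *Lmo2*, *Wnt2b*, *Bmp7*, *Wnt9a* and *Wnt5a* lower in mutants and *Lmx1a* itself higher (edgeR FDR under 0.1). *Wnt8b*, *Rspo3*, *Wnt9a* and *Wnt5a* are named after their values were seen. Of 9 genes of the cortical neuroepithelium beside the CH, 8 were higher in mutants and 2 were called higher, *Emx2* (log2 fold change 0.65, edgeR FDR 0.0356, no overlap) and *Nr2e1* (1.09, edgeR FDR 0.0455), opposite in direction to *Pdgfra*, *Lum* and *Dcn*. The part of the borders of the dissected piece in the results was not tested. *Lmx1a* RNA lay between 46.8 and 91.2 CPM in wild type and between 96.0 and 143.5 CPM in mutants, so its level does not check the genotype by absence. The transcript *Xist*, made from the inactive X chromosome of females, stood at 4515 to 5127 CPM in wild-type embryos 2 to 5 and at 0.157 to 1.101 CPM in wild-type embryo 1 and every mutant. Genotype and the sex chromosomes are thus nearly confounded, and values of wild-type embryo 1 are given beside the results for that reason.

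The levels of the 9 genes were compared per kilobase of the longest coding transcript. In wild-type CH the order was *Dcn* at 23.5 ± 7.62 CPM per kb (SD, n = 5), *Lum* at 16.8 ± 4.88, *Twist1* at 15.2 ± 11.8, *Pdgfra* at 7.20 ± 1.00, *Pdgfrb* at 5.51 ± 0.383, *Twist2* at 1.76 ± 0.754, *Foxc1* at 1.46 ± 0.467, *Foxd1* at 0.312 ± 0.177 and *Foxc2* at 0.0987 ± 0.0612. The ranges over embryos overlapped among *Dcn*, *Lum* and *Twist1*, and likewise between *Twist1* and *Pdgfra*, *Pdgfra* and *Pdgfrb*, *Twist2* and *Foxc1*, and *Foxd1* and *Foxc2*, so these neighbors were not separated. *Twist2* reached at most 2.96 CPM per kb in wild type, below the lowest *Pdgfrb* of 5.02. *Foxd1* lay below *Foxc1* in all wild-type embryos, at most at 0.512 CPM per kb against at least 0.781. In *Lmx1a*-/- CH the proteoglycan genes again had the highest means, with 13.9 ± 1.56 CPM per kb for *Dcn* and 8.03 ± 3.61 for *Lum*. The mutant range of *Lum*, 5.09 to 14.2, overlapped those of *Dcn* (12.2 to 16.4) and *Twist1* (1.77 to 8.85). The length used matters for *Dcn*. When every annotated exon is merged it drops to 7.07 ± 2.29 CPM per kb in wild type and 4.18 ± 0.47 in mutants. Both are below the means of *Twist1*, 15.2 in wild type and 5.99 in mutants. The differences between genotypes do not depend on length.

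**Figure D1:**
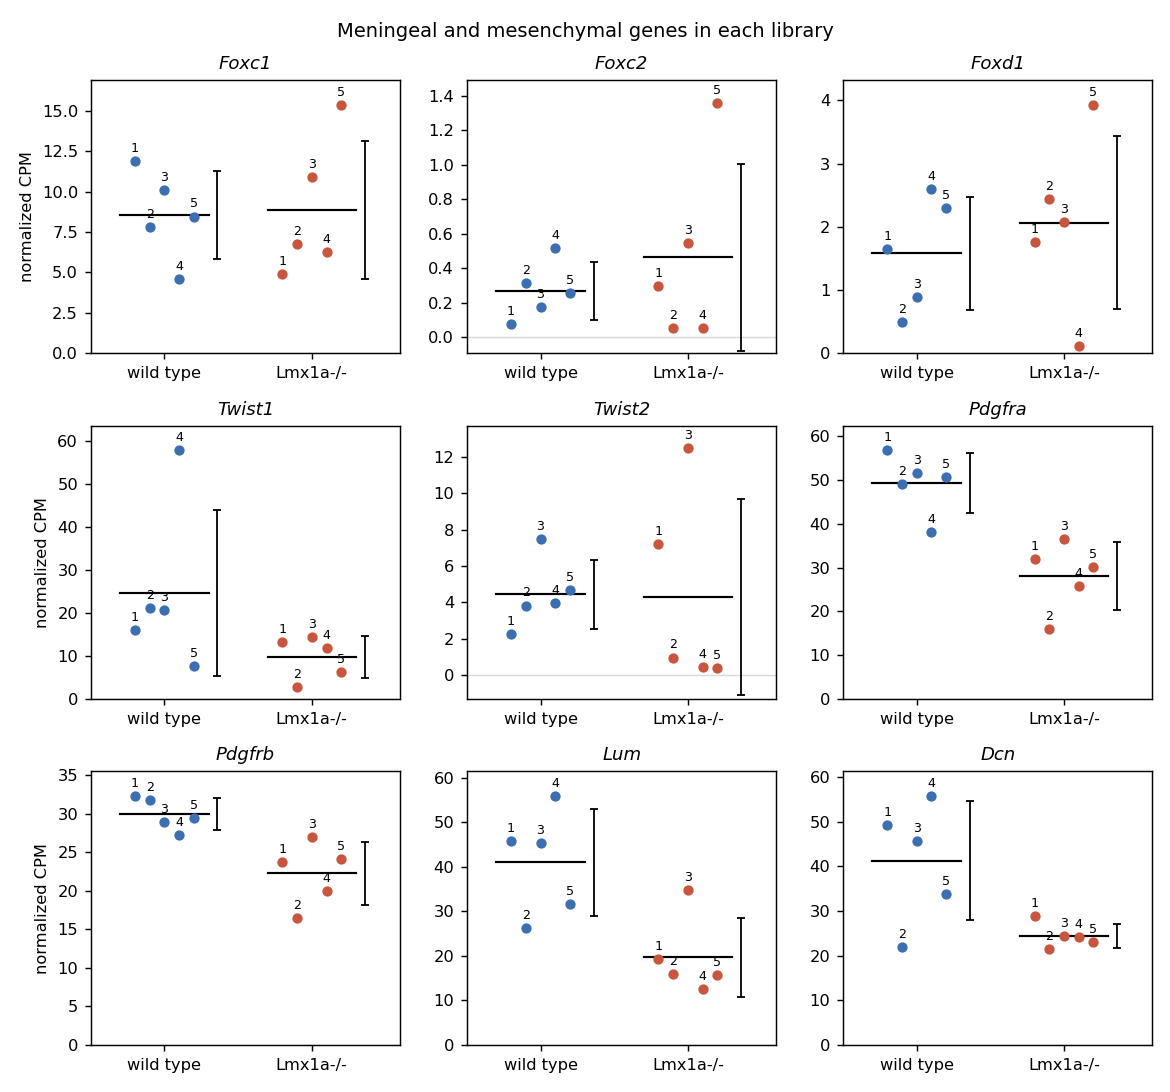
Normalized CPM (vertical axis, from 0 or below, a separate scale for each gene) of the 9 genes in 5 wild-type (blue) and 5 Lmx1a-/- (red) libraries, numbered by embryo; black lines are means and bars are ± 1 SD. The 2 genotypes do not overlap for *Pdgfra* and *Pdgfrb*, and wild-type embryo 4 stands alone for *Twist1* at 57.8 CPM.

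Among the transcription factors, *Foxc1* (ENSMUSG00000050295, chr13:31806633-31812476), a forkhead gene needed for the meninges to form, did not separate the genotypes. Wild-type embryos 1 to 5 had 11.9, 7.80, 10.1, 4.57 and 8.46 normalized CPM, and *Lmx1a*-/- embryos 1 to 5 had 4.92, 6.74, 10.9, 6.29 and 15.4. The highest value came from a mutant and the lowest from a wild-type embryo. The log2 fold change was 0.05 (SE 0.32, approximate 95% interval -0.57 to 0.67, FDR 0.963 by edgeR's quasi-likelihood test with Benjamini-Hochberg adjustment).

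*Foxc2* (ENSMUSG00000046714, chr8:121116171-121118895), its close paralog, was the rarest of the 9 genes. Its counts were 2, 7, 6, 10 and 7 in wild-type embryos 1 to 5 and 9, 1, 16, 2 and 39 in mutants 1 to 5. Mutant 5, with 39 counts or 1.36 CPM, stood highest and also had the highest *Foxc1*, while mutants 2 and 4 had fewer CPM of *Foxc2* than any wild-type embryo. The log2 fold change was 0.81 (SE 0.84, approximate 95% interval -0.84 to 2.45, edgeR FDR 0.687), an interval that includes large differences in both directions. With 1 to 39 counts per library the level of *Foxc2* is uncertain. Whether reads in the run of 53 bases shared with *Foxc1* add to this was not examined.

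*Foxd1* (ENSMUSG00000078302, chr13:98354242-98359305) encodes another forkhead factor of mesenchymal and stromal progenitors. Counts were 44, 11, 30, 50 and 62 in wild-type embryos 1 to 5 and 53, 45, 61, 4 and 113 in mutants 1 to 5. Both extremes were mutants, embryo 4 with 0.111 CPM and embryo 5 with 3.93 CPM. The mean was 1.58 ± 0.894 CPM (SD, n = 5) in wild type and 2.07 ± 1.37 in mutants, with a log2 fold change of 0.38 (SE 0.64, approximate 95% interval -0.87 to 1.64, edgeR FDR 0.823).

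*Twist1* (ENSMUSG00000035799, chr12:33957671-33959829), a basic helix-loop-helix factor of cranial mesenchyme and neural crest, had the largest fitted difference of the 9 genes but did not pass the test. Wild-type embryos 1 to 5 had 16.1, 21.1, 20.6, 57.8 and 7.72 normalized CPM, and mutants 1 to 5 had 13.2, 2.88, 14.4, 12.0 and 6.33. Wild-type embryos 1 to 4 lay above all mutants, whereas wild-type embryo 5 lay among them. The log2 fold change was -1.33 (SE 0.49, unadjusted p = 0.0174 and FDR 0.189 by edgeR's quasi-likelihood test). It was -0.74 (SE 0.40, FDR 0.428) without wild-type embryo 4. The E-proteins that pair with Twist factors (*Tcf3*, *Tcf4* and *Tcf12*) were tested as a list of 3, and edgeR called 0, with 0 at an unadjusted p under 0.05 (16.4% of all tested genes), 0 by DESeq2 and a median log2 fold change of -0.027. Of these, *Tcf4* had the smallest p, with 1872 ± 213 CPM (SD, n = 5) in wild type and 2070 ± 146 in mutants (log2 fold change 0.15, SE 0.08, edgeR FDR 0.423).

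*Twist2* (ENSMUSG00000007805, chr1:91801461-91848028), known from dermal and other fibroblast progenitors, had nearly equal means but a very different spread. Wild-type embryos 1 to 5 had 2.28, 3.83, 7.47, 4.00 and 4.69 normalized CPM, and mutants 1 to 5 had 7.22, 0.978, 12.5, 0.471 and 0.383. Mutants 2, 4 and 5 lay below all wild-type embryos and mutant 3 above them all. Wild-type values spanned 3.28-fold and mutant values 32.6-fold. The log2 fold change was -0.05 (SE 0.78, approximate 95% interval -1.57 to 1.47, edgeR FDR 0.985), and it turned slightly positive, to 0.0036, when libraries were scaled by their totals alone. The antisense gene *Gm29100* overlaps 1477 exonic bases of *Twist2* and had 0 to 28 counts per library. If counting ignored strand, a read within those bases could have come from either gene. How such reads were counted was not examined. *Gm29101*, an intronic transcript of *Twist2* on the same strand, had 10, 34, 94, 20 and 12 counts in wild type and 45, 5, 102, 1 and 9 in mutants, again with mutants 1 and 3 well above mutants 2, 4 and 5.

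Of the receptors, *Pdgfra* (ENSMUSG00000029231, chr5:75152292-75198215), which binds PDGF ligands on mesenchymal cells, did not overlap between genotypes, by a narrow margin. Wild-type embryos 1 to 5 had 56.7, 49.0, 51.5, 38.0 and 50.6 normalized CPM, and mutants 1 to 5 had 31.9, 15.9, 36.5, 25.9 and 30.2. All wild-type embryos lay above all mutants, with the gap between wild-type embryo 4 and mutant 3 the narrowest. Means were 49.2 ± 6.86 CPM (SD, n = 5) in wild type and 28.1 ± 7.77 in mutants, 1.75-fold higher in wild type by the fit (log2 fold change -0.81, SE 0.18, FDR 0.0388 by edgeR's quasi-likelihood test). *Pdgfra* passed in 9 of the 10 fits that leave out 1 embryo and missed only without mutant 4 (FDR 0.1003). Among the 9 genes it alone passed at an FDR under 0.05, as did 2.07% of all tested genes.

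*Pdgfrb* (ENSMUSG00000024620, chr18:61045150-61085061), the receptor of pericytes and vascular smooth muscle as well as of mesenchyme, also did not overlap between genotypes. Wild-type embryos 1 to 5 had 32.3, 31.8, 28.9, 27.2 and 29.4 normalized CPM, and mutants 1 to 5 had 23.8, 16.4, 27.0, 19.9 and 24.1. The lowest wild-type value, in embryo 4, was only just above the highest mutant value, in embryo 3. The log2 fold change was -0.43 (SE 0.13, unadjusted p = 0.00546, FDR 0.113 by edgeR's quasi-likelihood test), which misses the threshold. It passed with the likelihood ratio test of edgeR (FDR 0.0818), with DESeq2 (FDR 0.0380) and with the newer dispersion method of edgeR (FDR 0.0964). Those tests called 6.28%, 8.15% and 5.46% of all tested genes. The 2 receptor genes are the 2 of 9 whose genotypes did not overlap, against 4.44% of all tested genes.

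Counts of *Pdgfra* divided by counts of *Pdgfrb* in the same library do not depend on scaling. This ratio was 1.76, 1.54, 1.78, 1.40 and 1.72 in wild-type embryos 1 to 5 and 1.34, 0.970, 1.35, 1.30 and 1.25 in mutants 1 to 5. All wild-type ratios lay above all mutant ratios, so *Pdgfra* differed more between the genotypes than *Pdgfrb* did. This ratio is given as a description, without a test. Within each genotype the receptors shared their extremes, wild-type embryo 1 and mutant 3 being highest for both and wild-type embryo 4 and mutant 2 lowest for both.

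**Figure D2:**
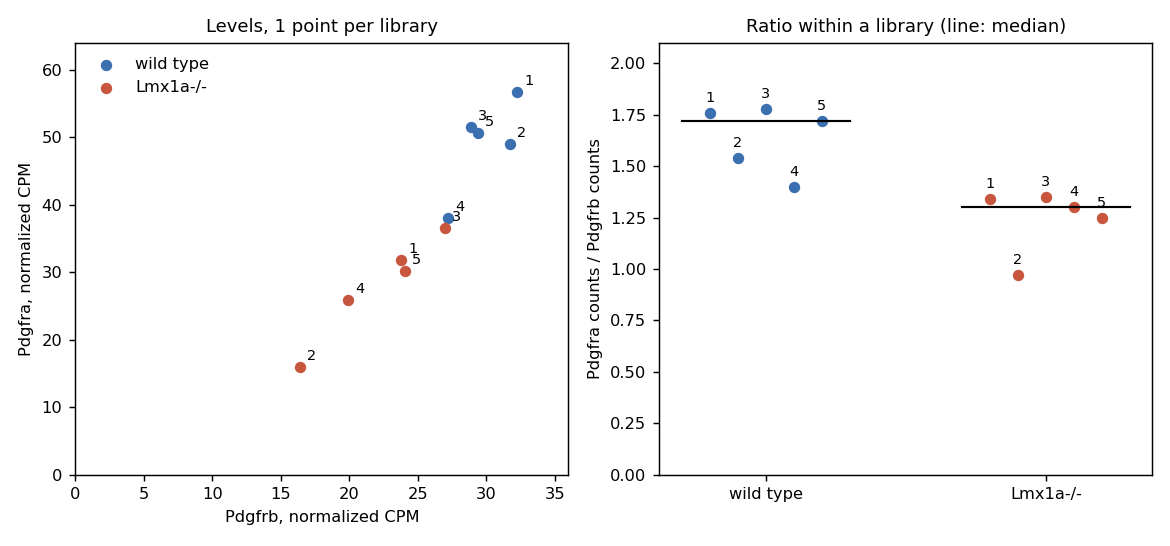
Left, normalized CPM of Pdgfra (vertical) against Pdgfrb (horizontal), 1 point per library numbered by embryo, wild type in blue and Lmx1a-/- in red; right, the ratio of their counts in each library, with the median of each genotype as a line. Wild-type ratios lie between 1.40 and 1.78 and mutant ratios between 0.970 and 1.35.

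The ligands did not pass the test. Of 5 genes listed (*Pdgfa*, *Pdgfb*, *Pdgfc*, *Pdgfd* and the receptor-like gene *Pdgfrl*), edgeR called 0, DESeq2 called 0, 1 had an unadjusted p under 0.05, 4 were lower in mutants, and the median log2 fold change was -0.27. *Pdgfa*, whose product binds the alpha receptor, had the smallest p, with 30.1, 47.8, 28.4, 83.1 and 26.4 CPM in wild-type embryos 1 to 5 and 27.5, 14.5, 32.6, 25.2 and 19.5 in mutants 1 to 5. The highest value was that of wild-type embryo 4, as for *Twist1*, and the genotypes overlapped (log2 fold change -0.85, SE 0.31, edgeR FDR 0.182).

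The proteoglycan genes *Lum* (ENSMUSG00000036446, chr10:97565128-97572703) and *Dcn* (ENSMUSG00000019929, chr10:97479609-97518143) lie next to each other on the plus strand, 47.0 kb apart. Lumican and decorin both carry leucine-rich repeats and regulate how collagen fibrils assemble. For *Lum*, wild-type embryos 1 to 5 had 45.9, 26.3, 45.5, 55.9 and 31.6 normalized CPM, and mutants 1 to 5 had 19.3, 15.98, 34.9, 12.5 and 15.7. Mutant 3 lay above wild-type embryos 2 and 5, and the other mutants lay below all wild-type embryos. Levels were 41.0 ± 11.9 CPM (SD, n = 5) in wild type and 19.7 ± 8.85 in mutants, 2.09-fold higher in wild type by the fit (log2 fold change -1.06, SE 0.27, edgeR FDR 0.0619). *Lum* passed in 4 of the 10 fits with 1 embryo left out, with an FDR of 0.00791 without mutant 3 and of 0.146 without mutant 5, and its fold change stayed between -1.38 and -0.93.

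For *Dcn*, wild-type embryos 1 to 5 had 49.3, 22.01, 45.6, 55.7 and 33.8 normalized CPM, and mutants 1 to 5 had 28.9, 21.5, 24.4, 24.1 and 23.1. Mutants were close together, and wild-type embryo 2 was the sole wild-type embryo among them. Means were 41.3 ± 13.4 CPM (SD, n = 5) in wild type and 24.4 ± 2.74 in mutants (log2 fold change -0.76, SE 0.20, edgeR FDR 0.0740). *Dcn* passed in 3 of the 10 fits with 1 embryo left out, with an FDR of 0.00797 without wild-type embryo 2 and of 0.160 without mutant 5. The ratio of *Lum* to *Dcn* counts was 0.931 to 1.19 in wild type and 0.517 to 1.43 in mutants, mutant 3 being the highest and the other mutants lying at 0.742 or less, under all wild-type embryos.

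**Figure D3:**
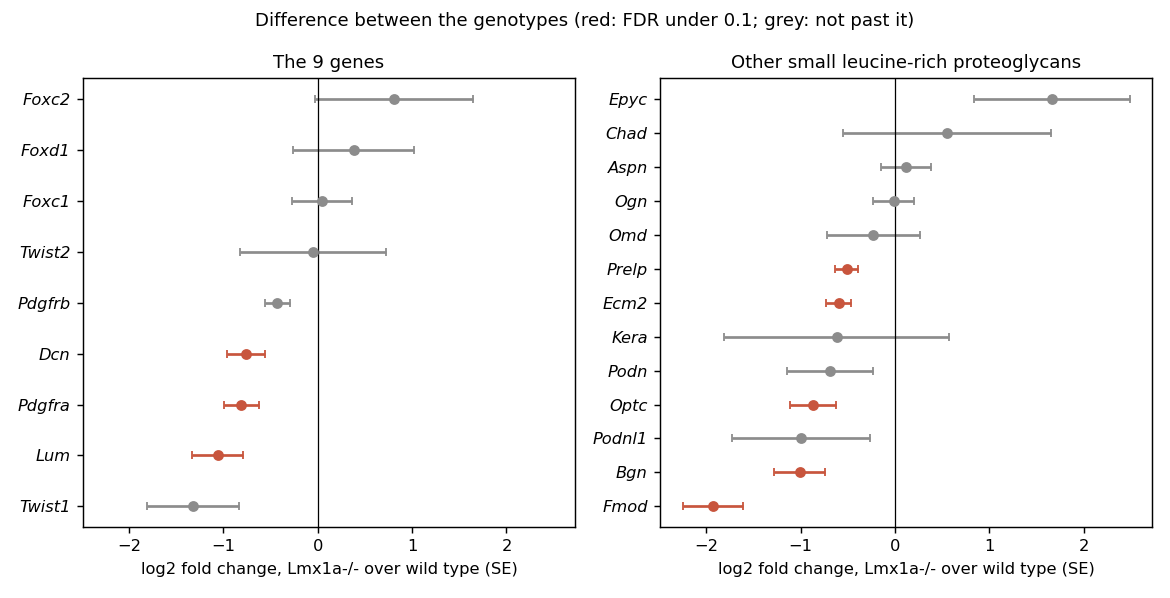
Log2 fold change, Lmx1a-/- over wild type (horizontal axis), with bars of ± 1 SE, for the 9 genes (left) and for 13 other small leucine-rich proteoglycans (right); red points have an FDR under 0.1 in edgeR's quasi-likelihood test and grey points do not. *Pdgfra*, *Lum* and *Dcn* are red on the left, and Fmod at -1.93 is the lowest point on the right.

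Other genes of the same gene family or tissue were read from 3 lists, together 70 genes of which 64 were tested. Lower levels were called for 7 of the 64 (10.9%) and higher levels for 0. However, 1 gene was called higher by each of DESeq2, the likelihood ratio test and the newer dispersion method of edgeR. This was *Slc6a13*, a transporter gene of meningeal cells named after its value was seen, with a log2 fold change of 1.92 (SE 0.70, edgeR FDR 0.188). A fold change below 0 was found for 50, and the median log2 fold change was -0.38. Most of the calls were in the family of *Lum* and *Dcn*. Among 13 other small leucine-rich proteoglycan genes, 5 were lower in mutants (38.5%) and the median was -0.60. *Fmod*, encoding the collagen-binding fibromodulin, fell from 5.06 ± 1.05 CPM (SD, n = 5) to 1.33 ± 0.608 without overlap (log2 fold change -1.93, SE 0.32, edgeR FDR 0.00695). *Ecm2* fell from 35.02 ± 5.95 to 23.2 ± 3.04 CPM (log2 fold change -0.60, edgeR FDR 0.0365) and *Prelp* from 156.0 ± 30.2 to 109.6 ± 11.1 CPM (log2 fold change -0.51, edgeR FDR 0.0507), again without overlap. The remaining calls were *Bgn* (log2 fold change -1.01, edgeR FDR 0.0770) and *Optc* (log2 fold change -0.87, edgeR FDR 0.0915), named after their values were seen. *Optc* is best known from the ciliary epithelium of the eye rather than from mesenchyme.

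Fewer calls fell among the other genes of mesenchyme. Of 22 tested transcription factor genes of mesenchyme, 1 was called, *Alx4*, a homeobox gene of craniofacial mesenchyme, which fell from 9.89 ± 4.39 CPM (SD, n = 5) to 4.26 ± 1.93 (log2 fold change -1.21, SE 0.33, edgeR FDR 0.0792). Like *Twist1* and *Pdgfa*, it was highest in wild-type embryo 4, at 17.3 CPM. Of 29 tested effector genes of meninges and fibroblasts, among them the fibrillar collagens, 1 was called. This was *Igf2*, a growth factor gene of many embryonic mesenchymal tissues, which fell from 26.6 ± 17.2 to 6.31 ± 2.37 CPM without overlap (log2 fold change -2.07, SE 0.37, edgeR FDR 0.0102). By this test the called shares of these lists, 4.55% and 3.45%, were close to the 4.02% of all tested genes. Their medians were -0.51 and -0.29. At an unadjusted p under 0.05, 5 of the 22 were lower and 0 higher, and 5 of the 29 were lower and 1 higher. Of all tested genes, 8.7% were lower and 7.66% higher at that p. The likelihood ratio test called 3 of the 22 lower, and 4 of the 29 lower and 1 higher (6.28% of all tested genes). DESeq2 called 3 of the 22 lower, and 2 of the 29 lower and 1 higher (8.15%). The summed level of the effector list overlapped between genotypes, at 655.3 to 1607 CPM in wild type and 608.9 to 936.8 in mutants. That of the 13 proteoglycan genes did not, at 246.9 to 332.8 against 177.3 to 212.2. *Prelp* was the largest part of this sum, at 125.4 to 190.5 CPM in wild type and 96.74 to 123.9 in mutants. Taken singly, 3 of the 13 did not overlap (4.44% of all tested genes), and 3 had a fold change above 0.

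**Figure D4:**
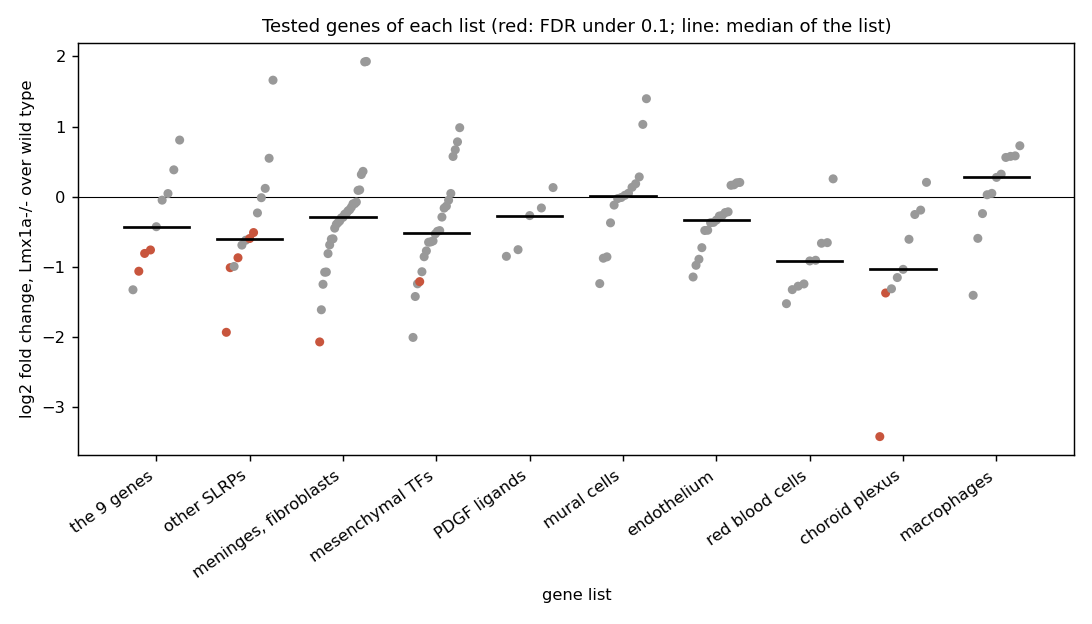
Log2 fold change, Lmx1a-/- over wild type (vertical axis), of each tested gene in the 9-gene set and 9 other lists; red points have an FDR under 0.1, lines are list medians, SLRP is small leucine-rich proteoglycan and TF is transcription factor. The median is -0.43 for the 9 genes, -0.60 for the other proteoglycans and 0.0052 for mural cells.

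*Pdgfrb* and *Pdgfra* also mark cells other than mesenchyme, so the genes of those cells were read beside them. Of 14 tested genes of pericytes and vascular smooth muscle, edgeR called 0 and DESeq2 called 1, 1 had an unadjusted p under 0.05, their median log2 fold change was 0.0052 and their summed level was 94.97 to 133.6 CPM in wild type and 88.7 to 146.2 in mutants. *Anpep* had the smallest p of that list (log2 fold change -0.88, SE 0.32, edgeR FDR 0.189). Of 4 tested genes of oligodendrocyte precursors edgeR and DESeq2 called 0 and 0 had an unadjusted p under 0.05, with summed levels of 3.32 to 12.2 CPM in wild type and 3.30 to 14.2 CPM in mutants. *Cspg4* had the smallest p there (log2 fold change -0.86, SE 0.41, edgeR FDR 0.316). The other 3 tested genes were higher in mutants, and the median of the list was 0.40. *Olig1* and *Nkx2-2*, not tested, had at most 16 and 13 counts in any library. *Notch3*, also a gene of neural progenitors, made up most of the mural sum in many libraries, and the other 13 genes summed to 28.7 to 76.6 CPM in wild type and 28.4 to 69.4 in mutants. The part of pericytes or precursors in the receptor differences was not tested.

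Genes of some other tissues next to the CH moved in the same direction as *Pdgfra*, *Lum* and *Dcn*. The 9 tested genes of red blood cells had summed levels of 642.5 to 1489 CPM in wild type and 267.8 to 581.2 in mutants, without overlap and with a median log2 fold change of -0.91, and 6 had an unadjusted p under 0.05, as did 16.4% of all tested genes. The quasi-likelihood test called 0, with *Hba-x* the nearest (edgeR FDR 0.107), whereas the likelihood ratio test and DESeq2 each called 4 lower. Of 9 tested genes of choroid plexus epithelium, edgeR called 2 lower, *Ttr* (log2 fold change -3.42, edgeR FDR 0.0512) and *Calml4* (log2 fold change -1.37, edgeR FDR 0.0988). A fold change below 0 was found for 8 of the 9, with a median of -1.03, and 6 had an unadjusted p under 0.05 by edgeR. The likelihood ratio test and DESeq2 each called 5 lower (6.28% and 8.15% of all tested genes in either direction). The summed level of the 9 was 121.4 to 465.8 CPM in wild type and 149.5 to 220.0 in mutants. Of 17 endothelial genes edgeR called 0 and DESeq2 called 1, and 2 had an unadjusted p under 0.05, with a median of -0.33, summed levels of 36.9 to 133.6 and 34.1 to 84.7 CPM, and the smallest p for *Eng* (log2 fold change -0.98, edgeR FDR 0.207). Of 11 genes of microglia and macrophages edgeR and DESeq2 called 0 and 1 had an unadjusted p under 0.05, with a median of 0.28 and the smallest p for *Tyrobp* (log2 fold change 0.73, edgeR FDR 0.253). With the mean level of the choroid plexus genes as a covariate none of the 9 genes passed, at log2 fold changes of -0.63 for *Pdgfra*, -1.22 for *Lum* and -1.07 for *Dcn*, and with that of the endothelial genes the same 3 passed. The first of these fits called 0.715% of all tested genes and the other 4.67%. The choroid plexus mean itself differed between genotypes (correlation with genotype -0.743, against -0.242 for the endothelial mean). That covariate and genotype are therefore hard to separate in the same fit. The SEs were larger with it, at 0.25 for *Pdgfra* (0.18 without), 0.37 for *Lum* (0.27 without) and 0.27 for *Dcn* (0.20 without). Compared with the main fit, the fitted difference was smaller for *Pdgfra* and larger for *Lum* and *Dcn*. The part of red blood cells in these differences was not tested.

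Across libraries, the 9 genes did not move as 1 block. Their summed level was 162.6 to 246.3 CPM in wild type and 82.9 to 163.2 in mutants. Mutant 2 was the lowest library for 5 of the 9 genes and mutant 4 for 2, and each was among the 3 lowest for 7. Wild-type embryo 4 was highest for *Twist1*, *Lum* and *Dcn* and lowest for *Foxc1*, and mutant 5 was highest for all 3 forkhead genes while having the lowest *Twist2*.

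A mean of the 9 genes was taken from their log2 levels, each centered but not scaled. Genes that vary widely therefore weigh more in it. *Foxd1*, *Twist2* and *Foxc2* had the widest ranges among mutants, 32.6-fold for *Twist2*, against 1.34-fold for *Dcn*. Likeness to this mean is thus not likeness to *Pdgfra*, *Lum* or *Dcn* taken singly. The 8 genes whose log2 level over the 10 libraries was most like this mean were *Rab34* (Pearson r = 0.963), *Synpo* (0.958), *Krt14* (0.954), *Krt5* (0.953), *Gabrp* (0.945), *Cmtm3* (0.944), *F7* (0.942) and *Wnt6* (0.938). These values describe 10 libraries that also share genotype, and leaving out mutants 2 and 4, which lie farthest from the median, lowered them to between 0.699 and 0.901. None of the 8 genes passed the genotype test by edgeR or DESeq2, and 2 had an unadjusted p under 0.05. *Krt5* and *Krt14* encode the keratin pair of basal cells in surface epithelium such as skin. *Krt5* had 16.1, 43.4, 40.1, 378.0 and 11.2 normalized CPM in wild-type embryos 1 to 5 and 14.1, 0, 30.1, 0 and 1.32 in mutants 1 to 5. *Krt14* followed the same order of extremes, with 177.0 CPM in wild-type embryo 4 and 0 counts in mutants 2 and 4, which allow up to 0.163 and 0.083 CPM (3 counts, counting error only). A list of 24 surface epithelium genes, among them *Krt5*, *Krt14*, *Trp63*, *Cdh1* and *Dsp*, was written after these values and calls were seen, so its counts describe the libraries and test nothing. Of the 23 tested, edgeR called 7 lower in mutants (*Perp*, *Pkp1*, *Dsc2*, *Dsg1b*, *Evpl*, *Lad1* and *Klf5*) and 0 higher. That is 30.4%, against 4.02% of all tested genes. A fold change below 0 was found for 22, against 50.6% of all tested genes, and *Grhl3* was higher in mutants (log2 fold change 1.24, SE 0.40, edgeR FDR 0.136). The summed level of the 23 was 126.5, 309.3, 249.6, 2192 and 94.5 CPM in wild-type embryos 1 to 5 and 137.5, 55.6, 244.5, 103.5 and 77.4 in mutants 1 to 5. Wild-type embryo 4 stood far above all others, and the remaining wild-type embryos overlapped the mutants. Among mutants, the libraries with *Krt5* above 10 CPM (1 and 3) were also those with high *Twist2*.

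**Figure D5:**
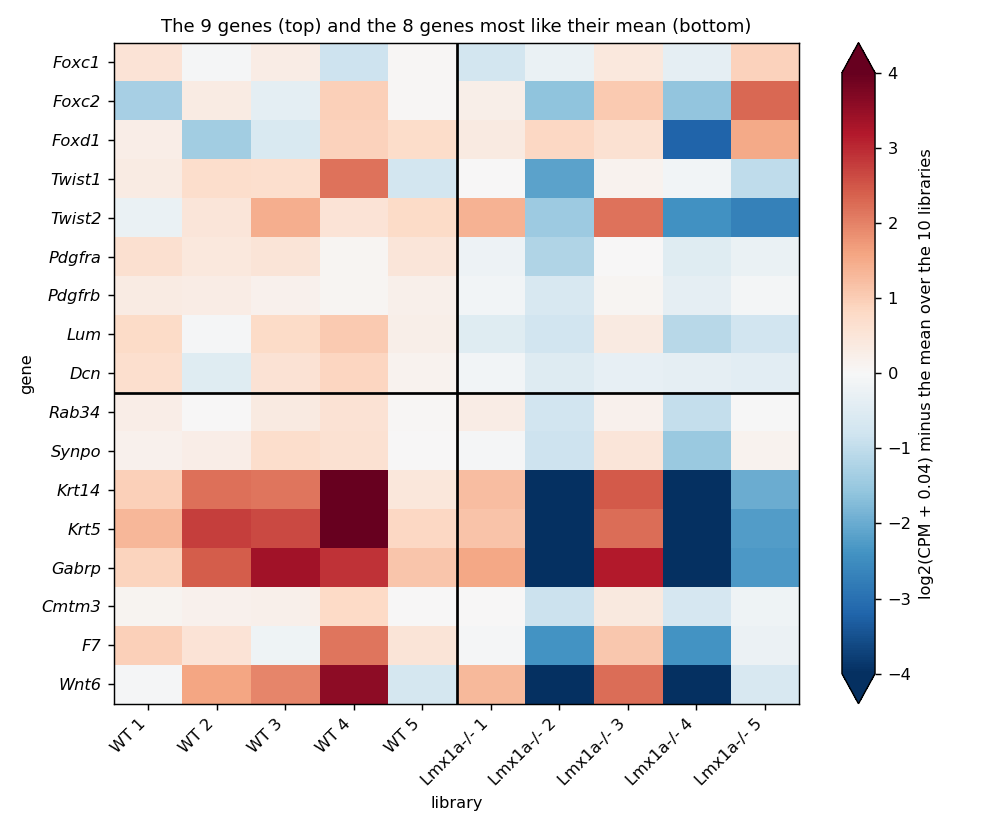
Log2(CPM + 0.04) minus the mean over the 10 libraries (color scale, clipped at ± 4) for the 9 genes (above the line) and the 8 genes most like their mean (below it), by library. Wild-type embryo 4 and mutants 2 and 4 are the extremes of the keratin genes, and *Pdgfra*, *Lum* and *Dcn* change over a much narrower range.

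The called genes were read again without the 3 libraries at the ends of the keratin range, wild-type embryo 4 and mutants 2 and 4, a choice made after these values were seen. The keratin genes were picked for likeness to the unscaled mean of the 9 genes, not to *Pdgfra*, *Lum* or *Dcn* taken singly. These libraries include the highest for *Lum* and *Dcn* and the lowest for each, so smaller differences follow in part from the choice. *Pdgfra* kept its call in the remaining 4 wild-type and 3 mutant libraries (log2 fold change -0.66, SE 0.11, edgeR FDR 0.0383), where 1.12% of 20914 tested genes were called. *Lum* (-0.68, SE 0.28, edgeR FDR 0.430) and *Dcn* (-0.57, SE 0.24, edgeR FDR 0.440) did not pass, and *Twist1* was at -0.54 (SE 0.36, edgeR FDR 0.666). The part of surface epithelium in the level of the 9 genes was not tested.

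Wild-type embryo 1, which like the mutants had almost no *Xist*, lay with the other wild-type embryos for the called genes. Its values of *Twist1*, *Pdgfra*, *Pdgfrb*, *Lum* and *Dcn* were above those of all 5 mutants. With this embryo alone against the mutants the fitted log2 fold changes were -1.02 for *Pdgfra*, -1.23 for *Lum* and -1.02 for *Dcn*. The wild-type arm of that fit is 1 library, assumed to vary as the mutants do, so its single call (*Dcn*, edgeR FDR 0.0712, with 0.642% of all tested genes called) reflects how close the mutants lay and not the wild-type spread. With the *Xist* level as a covariate the same directions held and none of the 9 passed, at -0.90 for *Pdgfra*, -1.16 for *Lum* and -1.003 for *Dcn*. That fit called 0.115% of all tested genes, and *Xist* is nearly confounded with genotype, so the loss of calls says little about the 9 genes.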

How the data were processed

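The authors trimmed the reads (FastQC 0.11.8 and Trimmomatic are named), aligned them to GRCm38 with STAR 2.7.1a and made the deposited read counts per gene with HTSeq 0.11.2. These are raw counts, neither filtered nor scaled. The strand setting of HTSeq is not given in the sources used here. Libraries were made from total RNA of dissected tissue with a SMARTER kit. The table has 52508 rows, of which 281 repeat another row and were dropped. Positions and transcripts are from GENCODE M21 on GRCm38, counted from 1.

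A gene was tested if 3 or more libraries held 10 or more of its counts. The fit used edgeR 4.0.16 (R 4.3.3), with TMM scaling, a trended dispersion and the quasi-likelihood test, over all 10 libraries and without covariates. Benjamini-Hochberg adjustment ran over all tested genes, and a call needs an FDR under 0.1. The filter, the tool and the FDR follow the study's methods, which name no test. The SE is the log2 fold change divided by the square root of F. The labels call each library an embryo. The script was tested on simulated data.

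The 9 genes and all lists were chosen with earlier results of these data known. Named genes are the 9, up to 3 genes past the threshold with the smallest p in each list or else the gene with the smallest p, the 8 most alike genes, and genes that overlap the 9. A list of surface epithelium genes was added after the data were seen. Alternatives were the likelihood ratio test, DESeq2 1.42.0, the newer dispersion method of edgeR, RLE scaling or library size only, other filters, an FDR of 0.05, a replicate block, 3 covariates and each embryo left out. Wild-type embryo 1 against all mutants, and a fit without 3 libraries, were added after the data were seen.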

Additional observations from a re-analysis of the deposited data

Results flagged for a closer look

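In 34 named genes, each genotype was examined for a library apart from the other 4 by the gap to its neighbor divided by the range of the group (Dixon's critical value 0.71 for 5 libraries), and 3 of 68 groups passed; chance alone marks about 5% of groups. *Twist1* in wild-type embryo 4 stood at 57.81 CPM, with a gap of 0.733 of the range. *Igf2* was also highest in wild-type embryo 4, at 56.77 CPM (0.787). *Tcf3* was lowest in wild-type embryo 5, at 91.24 CPM (0.748), in a group that spans only 91.24 to 95.04 CPM.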

How the results depend on the processing

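The quasi-likelihood test called 3 of the 9 genes and 7 of the 64 other mesenchymal genes. The likelihood ratio test, DESeq2 and the newer dispersion method of edgeR each called 4 of the 9, the same 3 and *Pdgfrb*. These called 6.28%, 8.15% and 5.46% of all tested genes. The number of the 9 called was 1 at an FDR under 0.05, 0 with the *Xist* level and 0 with the choroid plexus mean as a covariate, 1 in wild-type embryo 1 against all mutants, 1 without wild-type embryo 4 and mutants 2 and 4, and 0 to 3 when 1 embryo was left out, with 0 without mutant 4 and 1 without wild-type embryo 1 or 4 or mutant 2 or 5. For the other mesenchymal genes it was 13 with the likelihood ratio test, 11 with DESeq2, 11 with the newer dispersion method, 3 at an FDR under 0.05, 0 with *Xist*, 2 with the choroid plexus mean, 1 in wild-type embryo 1 against all mutants, 2 without the 3 libraries, and 3 to 9 when 1 embryo was left out. Over all tested genes, 870 calls became 1360 with the likelihood ratio test, 1766 with DESeq2, 448 at an FDR under 0.05, 25 with *Xist*, 155 with the choroid plexus mean, 130 in wild-type embryo 1 against all mutants, 235 without the 3 libraries and 451 to 1059 when 1 embryo was left out.

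The direction of 2 genes without a call turned. *Twist2* was at 0.0036 with library size only, 1.15 with *Xist*, 0.02953 with the endothelium mean, 0.92 in wild-type embryo 1 against all mutants and 0.55 without the 3 libraries, and between -0.97 and 0.25 when 1 embryo was left out. *Foxc1* was at -0.32 with *Xist*, at -0.43 in wild-type embryo 1 against all mutants, and between -0.24 and 0.20 when 1 embryo was left out. The cause was not tested. The fit of wild-type embryo 1 has 1 wild-type library, assumed to vary as the mutants do. *Pdgfra*, *Lum* and *Dcn* were lower in mutants under all alternatives run.

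Replicate block: with the embryo number as a block 3 of the 9 genes, the same ones, and 7 of the others were called. *Alx4*, *Bgn* and *Optc* lost their call under the block, and *Osr1*, *Col6a1* and *Col6a2* gained one. Embryos with the same number did not deviate together (correlations between -0.0895 and 0.00858), so the numbers do not pair the samples. All 9 genes passed the filter, so no gene needed the permutation test planned for genes under it. *Foxc2* fell under the filter in 3 of the fits with 1 embryo left out, where depth limits what can be said.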
